A study of Mus musculus with 9 samples.

Results

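The genes described are 43 regulators and markers of the germ layers: 23 neural genes, and 20 genes of mesoderm and endoderm. They were set against all 21887 protein-coding genes of the RefSeq annotation of GRCm38.p6, the mm10 build. Chromatin immunoprecipitation with sequencing (ChIP-seq) was done with an antibody to KDM6A, and the deposited lists hold intervals of the genome where reads were gathered. An interval belonged to a gene when it overlapped by at least 1 bp the window of that gene, which is its RefSeq span plus 10 kb on each side. No windows of the listed genes overlapped each other.

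All samples came from Sv129 mouse embryonic stem cells, grown on gelatin with leukemia inhibitory factor and serum. MTX cells were collected 24 h after 0.12 µM MTX was added, and their genotype field reads folate deficiency. Control cells have WT in that field, and every sample has neurodevelopment in its treatment field. The KDM6A antibody was used on 2 MTX and 2 control samples, a nonspecific IgG antibody on 1 MTX sample, and 4 inputs make up the 9 samples. No interval list of an input was used here, and the IgG sample is of MTX cells, so it gives no background measured in control cells. The labels do not tell whether libraries 1 and 2 of a group stem from different cultures, so each spread and p measures the difference between libraries, which may be technical. Antibody intervals do not measure expression, and the labelled cell type was not checked from them.

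KDM6A, also called UTX, removes methyl groups from lysine 27 of histone H3. Polycomb repressive complex 2 places that mark, and in embryonic stem cells it lies at the promoters of many genes that direct the germ layers, often together with methylation of lysine 4, a mark of active promoters. Such genes are mostly silent in stem cells and are switched on in a lineage as the cells differentiate.

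RefSeq start sites were at hand for 36 of the 43 genes. Those of Nes, Nkx6-1 and Neurod4 lay within a KDM6A interval, each in 1 library, and that of Nodal lay within an IgG interval. The promoters of these 4 genes are shown to give the sequence at the start site within those intervals. The intervals are 1200 to 9600 bp wide, and the lists do not place reads within them. For Neurod4 the outer of its start sites is used. Each sequence runs 5′ to 3′ on the strand of the gene, from 250 bases before to 50 bases after the RefSeq start site in GRCm38.p6, and capitals mark the CpG dinucleotides.
Nes, chr3:87970843-87971142, plus strand, control 1 interval: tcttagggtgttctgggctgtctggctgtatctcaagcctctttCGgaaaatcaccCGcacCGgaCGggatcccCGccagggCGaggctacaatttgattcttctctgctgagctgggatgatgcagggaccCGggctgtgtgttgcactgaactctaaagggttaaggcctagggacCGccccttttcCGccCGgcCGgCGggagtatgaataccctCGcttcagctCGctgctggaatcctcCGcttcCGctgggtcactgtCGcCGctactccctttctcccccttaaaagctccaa
Nkx6-1, chr5:101664662-101664961, minus strand, MTX 1 interval: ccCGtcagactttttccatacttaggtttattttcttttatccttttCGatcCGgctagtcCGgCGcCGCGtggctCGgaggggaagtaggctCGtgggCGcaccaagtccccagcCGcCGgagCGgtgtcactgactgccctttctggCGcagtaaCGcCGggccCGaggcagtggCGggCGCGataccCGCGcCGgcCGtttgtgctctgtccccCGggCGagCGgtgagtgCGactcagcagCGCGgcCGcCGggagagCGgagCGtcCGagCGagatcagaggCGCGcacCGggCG
Neurod4, chr10:130280205-130280504, minus strand, MTX 1 interval: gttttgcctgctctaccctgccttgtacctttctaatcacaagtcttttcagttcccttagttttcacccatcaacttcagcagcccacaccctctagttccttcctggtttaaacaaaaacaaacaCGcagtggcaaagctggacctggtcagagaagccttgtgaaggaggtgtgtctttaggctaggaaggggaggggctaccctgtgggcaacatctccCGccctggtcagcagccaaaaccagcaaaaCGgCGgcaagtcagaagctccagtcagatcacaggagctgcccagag
Nodal, chr10:61417722-61418021, plus strand, IgG interval: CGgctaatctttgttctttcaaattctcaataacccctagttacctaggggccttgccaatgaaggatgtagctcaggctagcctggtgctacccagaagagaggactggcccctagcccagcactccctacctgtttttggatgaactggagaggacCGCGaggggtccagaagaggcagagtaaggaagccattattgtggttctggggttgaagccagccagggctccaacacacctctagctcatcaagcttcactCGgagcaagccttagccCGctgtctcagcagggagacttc

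These promoters span a wide range of CpG content. Nkx6-1 holds 40 CpG dinucleotides, a number that 5.76% of protein-coding genes reach with their most CpG-rich promoter. Nes holds 18, reached by 43.4% of genes, and Nodal and Neurod4 hold 5 and 4, reached by 72.5% and 76.4%. The inner promoter of Neurod4, covered by the same MTX 1 interval, holds 7, reached by 66.3%. The letters CG read the same on both strands, and 95.0% of the 17492 protein-coding genes with a RefSeq promoter have at least 1. Of the listed genes, 36 have a RefSeq promoter and 24 of these are at or above the median of all genes, which is 15. The neural genes had a median of 23 CpG dinucleotides over 21 genes, and the mesoderm and endoderm genes a median of 17 over 15.

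The lists hold 24177 and 28976 intervals for MTX libraries 1 and 2, 44838 and 21228 for control libraries 1 and 2, and 22843 for IgG. Reads within intervals number between 3251202 and 4192029 in the KDM6A libraries and 3513697 in IgG. Each interval carries a count of immunoprecipitated reads, a count of background reads and the authors' deposited fold, which is the ratio of the counts times a constant for the list. Intervals beside a fold give its 95% exact (Clopper-Pearson) range from the counts. They cover counting error only, since PCR reads without molecular identifiers are not independent molecules.

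**Figure D1:**
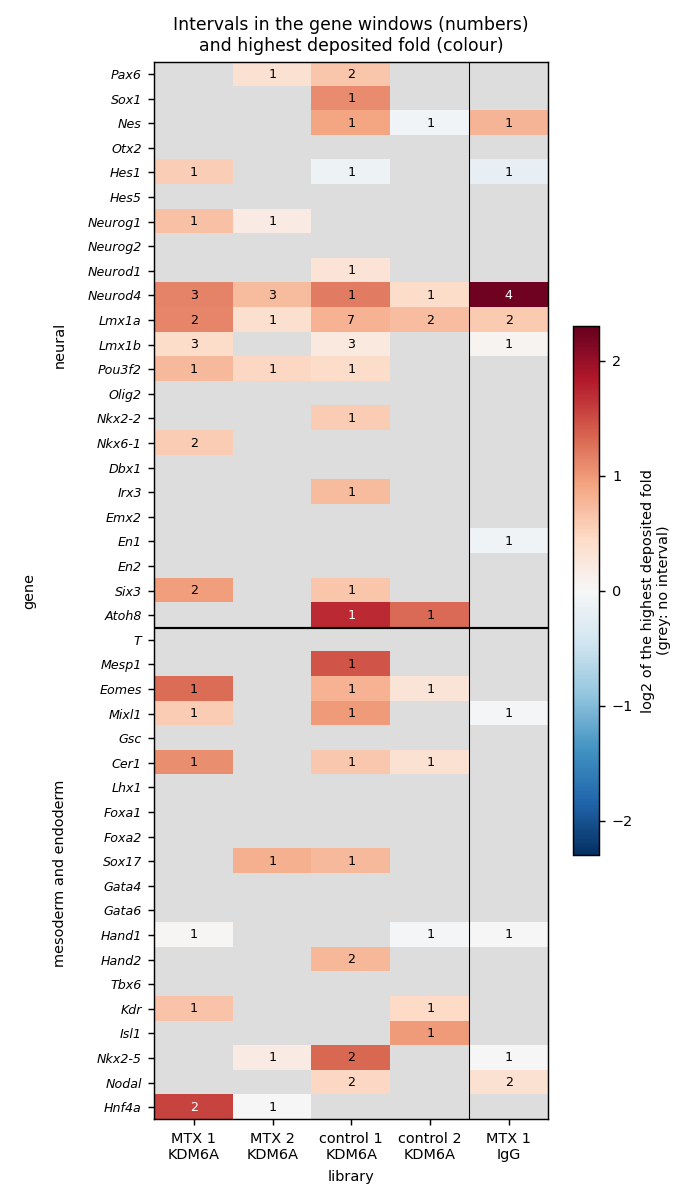
Number of intervals (digits) and log2 of the highest deposited fold (colour, grey for no interval) for each of the 43 genes (rows) in the 5 libraries (columns). The columns differ in how many rows are filled, most in control 1 with 21 genes, and 15 rows have no interval in any library.

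The listed genes held 75 KDM6A intervals, and of the 43 genes 27 had one in at least 1 KDM6A library (62.8%, beside 67.9% of all protein-coding genes). Of the neural genes 15 of 23 had one, and of the mesoderm and endoderm genes 12 of 20. No KDM6A library reached the other 16 genes (37.2%), beside 32.1% of all protein-coding genes. In single libraries, 14 of the 43 genes had an interval in MTX 1 and 8 in MTX 2, beside 38.3% and 35.1% of all protein-coding genes. Control 1 had 21 and control 2 had 9, beside 53.3% and 29.9%, and IgG had 10, beside 31.6%. As shares of the 43 genes these are 32.6% and 18.6% in MTX cells, 48.8% and 20.9% in control cells and 23.3% in IgG. All 5 shares were below that of all genes. The windows differ in length, since the listed genes are short, with a median span of 6272 bp for the neural and 6933 bp for the mesoderm and endoderm genes, against 17169 bp for all genes. Counted per length, MTX 1 had 13.8 intervals per Mb of window at the listed genes and 12.5 at all genes, and control 1 had 20.8 and 22. MTX 2 and control 2 both had 6.29 at the listed genes, against 13.4 and 10.3 at all genes, and IgG had 9.44 against 10.6.

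Neural genes had the higher share in 3 of the 4 KDM6A libraries and in IgG, and mesoderm and endoderm genes had it in control 2. In MTX 1, 8 of 23 neural genes (34.8%) and 6 of 20 mesoderm and endoderm genes (30%) had one. MTX 2 had 5 (21.7%) and 3 (15%). Control 1 had 13 (56.5%) and 8 (40%), while control 2 had 4 (17.4%) and 5 (25%). IgG had 6 (26.1%) and 4 (20%). The difference, neural minus mesoderm and endoderm, was 4.78 and 6.74 percentage points in the MTX libraries and 16.5 and -7.61 in the control libraries. It averaged 5.11 points over the 4 KDM6A libraries, and was 6.09 points in IgG. The control libraries differed in sign, and the IgG difference lay within the range of the KDM6A libraries. No test was made over genes, which are not replicates of a condition. Per length of window the neural genes had 17 and 7.93 intervals per Mb in MTX 1 and 2, against 9.90 and 4.24 at mesoderm and endoderm genes. In control 1 and 2 they had 24.9 and 5.66, against 15.6 and 7.07, and in IgG 11.3 against 7.07. These values rest in part on 2 neural genes. Lmx1a and Neurod4 held 12 and 8 of the 49 neural KDM6A intervals, and 2 and 4 of the 10 in IgG.

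**Figure D2:**
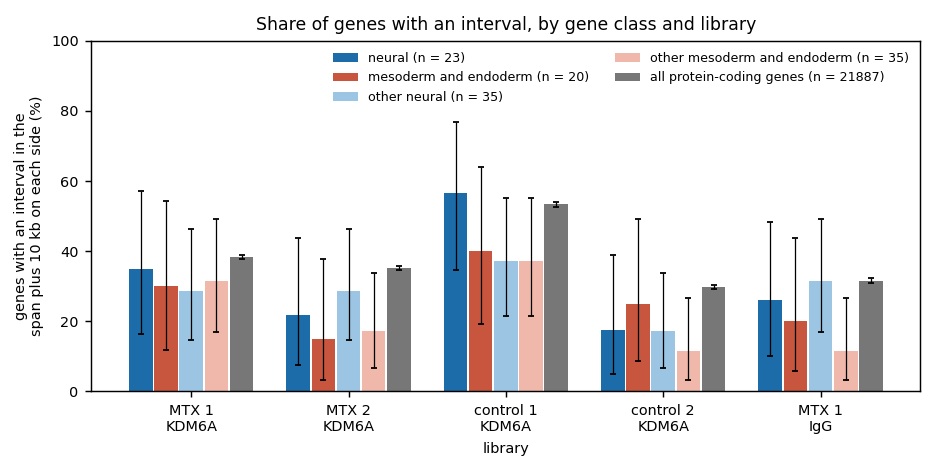
Share of genes (%) with an interval in the window, for 5 gene classes in each library, with exact 95% intervals as error bars. Control 1 has the tallest bar in each of the 5 classes (56.5% of neural genes, 53.3% of all protein-coding genes). The neural bar is the lower of the neural and the mesoderm and endoderm bars in control 2 alone (17.4% and 25%). The error bars cover counting over genes, which are not replicates.

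Other genes of the same layers, 35 neural and 35 of mesoderm and endoderm, were counted in the same way. Of the other neural genes 10 and 10 had an interval in MTX 1 and 2, 13 and 6 in control 1 and 2, and 11 in IgG. Of the other mesoderm and endoderm genes the counts were 11, 6, 13, 4 and 4 in the same order of libraries. These shares, from 11.4 to 37.1%, were also below those of all genes in each library.

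Neural progenitor genes had 8 KDM6A intervals at 4 of 6 members, beside 67.9% of all protein-coding genes with one. Control 1 reached the same 4 of 6, beside 53.3% of all protein-coding genes. Pax6, a transcription factor of the early neural plate and eye, had 2 intervals within the gene in control 1 and 1 upstream in MTX 2. The MTX 2 interval (chr2:105663201-105667400) had 121 reads over 107 of background, a fold of 1.27. The control 1 intervals had folds of 1.30 (106 over 108 reads) and 1.55 (76 over 65), and none of these 3 intervals overlapped another. Sox1, an early factor of the neural plate, had 1 interval, in control 1, at 9919 bp upstream (79 over 49 reads, fold 2.13, range 1.47 to 3.11). It is the farthest interval of the set: just inside the 10 kb limit stood Sox1 and Isl1 (control 2, 9513 bp, fold 1.98), and just outside it Kdr (control 1, 10729 bp, fold 1.41) and Hand1 (control 1, 10854 bp, fold 1.63).

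Nes, the gene for the intermediate filament nestin of neural progenitors, had an interval in each control library and in no MTX library. The control 1 interval (chr3:87970001-87971200) covered the start site with 54 over 38 reads, a fold of 1.88 (1.22 to 2.93). The control 2 interval lay 4293 bp upstream with 112 over 122 reads, a fold of 0.957 and a deposited adjusted p of 1. IgG had an interval within the gene, with 75 over 45 reads and a fold of 1.73. The control libraries thus listed different sites at Nes, and the one in control 2 was not above its background. Hes1, a repressor downstream of Notch that keeps progenitors from differentiating, had overlapping intervals in MTX 1, control 1 and IgG across the gene. Reads numbered 90 over 65 in MTX 1 (fold 1.49), 83 over 119 in control 1 (fold 0.923) and 181 over 214 in IgG (fold 0.878).

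The 5 proneural factors held 13 KDM6A intervals, 8 of them at Neurod4, and Neurog2 had none. An interval was found at 4 of the 5, beside 67.9% of all protein-coding genes. Neurod4, a basic helix-loop-helix factor of neuronal differentiation (chr10:130268152-130280254, minus strand), had intervals in all 5 libraries. MTX 1 and MTX 2 had 3 each, control 1 and control 2 had 1 each and IgG had 4. Upstream of the gene, MTX 1 and control 1 listed the same 3200 bp (chr10:130283201-130286400), with 98 over 64 reads and a fold of 1.64 in MTX 1, and 100 over 58 reads and a fold of 2.28 in control 1. Of the places that 2 KDM6A libraries shared, this was the only one with the same start and end, and no IgG interval overlapped it. At the 3′ end MTX 1 had 66 over 32 reads, a fold of 2.21, and IgG had 59 over 13 reads, a fold of 4.71 (2.55 to 9.36). That IgG interval had the highest fold of any interval, KDM6A or IgG, in the windows of the 43 genes. The MTX 1 interval over the Neurod4 start site, whose promoter is printed above, had 206 over 199 reads, a fold of 1.11 and a deposited adjusted p of 0.0777.

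Atoh8, a basic helix-loop-helix factor (chr6:72206174-72235780, minus strand), had the highest fold of all 75 KDM6A intervals, and its intervals were in the control libraries alone. Control 1 had 52 over 21 reads, a fold of 3.28 (1.94 to 5.73), and control 2 had 97 over 41 reads, a fold of 2.47 (1.69 to 3.64). Neither overlapped IgG, and the deposited adjusted p was 1.81e-12 and 5.56e-14. The strand places both at the 3′ end of the gene, 30177 and 26377 bp from the start site, and the intervals did not overlap each other. Neurog1, a proneural factor, had the opposite pattern, with intervals in both MTX libraries and no control library. MTX 1 had 92 over 62 reads at 6021 bp upstream, a fold of 1.59, and MTX 2 had 125 over 123 reads at the 3′ end, a fold of 1.14 and a deposited adjusted p of 0.0804.

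**Figure D3:**
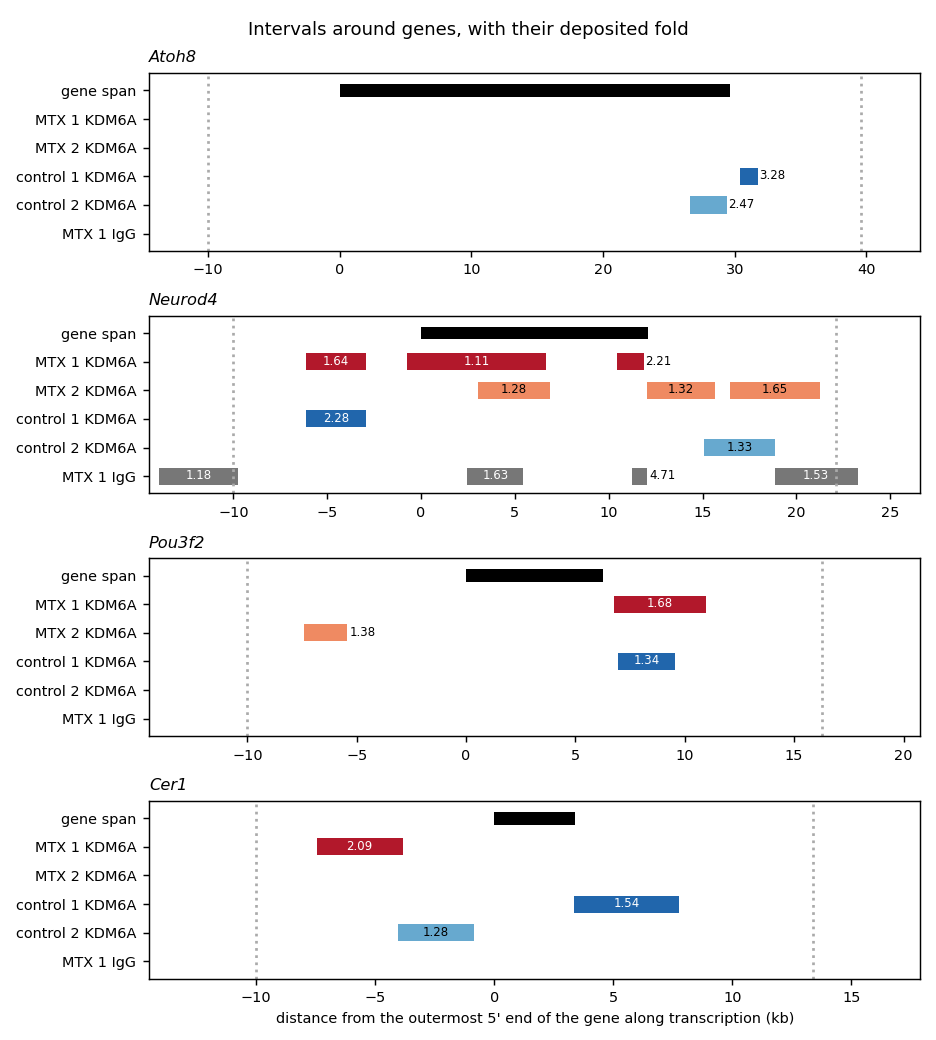
Intervals of the 5 libraries around 4 genes, by distance (kb) from the outermost 5′ end along the direction of transcription, with the deposited fold on or beside each bar and the window limits dotted. At Atoh8 both control intervals (3.28 and 2.47) sit at the 3′ end, and at Neurod4 only the upstream MTX 1 and control 1 bars (1.64 and 2.28) have the same position.

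Genes of regional neural identity held 28 KDM6A intervals, 12 of them in Lmx1a alone. The intervals were at 7 of 12 members, beside 67.9% of all protein-coding genes. Lmx1a, a LIM homeodomain factor of the midbrain floor plate and roof plate, is long, with a span of 160512 bp (chr1:167688230-167848741). MTX 1 and MTX 2 had 2 and 1 intervals there, control 1 and control 2 had 7 and 2, and IgG had 2. Folds ran from 1.28 in MTX 2 to 2.17 in MTX 1 (81 over 40 reads), and no interval overlapped one of another library. The nearest to the start site was a control 1 interval at 2243 bp (63 over 61 reads, fold 1.37). Lmx1b, its relative, had 3 intervals in MTX 1, with folds of 1.17 to 1.34, and 3 in control 1, with folds of 0.956 to 1.17. IgG had 1 at Lmx1b, with 145 over 144 reads and a fold of 1.04. Pou3f2, a POU factor of neurons, had intervals in 3 libraries. Below its 3′ end MTX 1 had 138 over 88 reads (fold 1.68) and control 1 had 74 over 73 reads (fold 1.34) in overlapping intervals, while the MTX 2 interval lay 5435 bp upstream (79 over 64 reads, fold 1.38). Six3, a forebrain and eye factor, had 83 over 46 reads in MTX 1 (fold 1.94) and 110 over 93 in control 1 (fold 1.56) at separate upstream positions. A further MTX 1 interval covered 217 bases of its promoter (121 over 113 reads, fold 1.15). Nkx6-1, a factor of the ventral neural tube, had both of its intervals in MTX 1, and the one over the start site had 112 over 80 reads, a fold of 1.5 (1.12 to 2.03). Nkx2-2 and Irx3 each had 1 interval, in control 1, with folds of 1.49 and 1.66, and En1 had 1 in IgG alone, with a fold of 0.940.

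The signals Nodal and Cer1 both had KDM6A intervals, as did 67.9% of all protein-coding genes. Nodal, the ligand that induces mesoderm and endoderm, had 2 in control 1. The upstream one had 82 over 122 reads, a fold of 0.889, the lowest of all 75, and overlapped an IgG interval of 287 over 342 reads (fold 0.871). The other, at the 3′ end, had 136 over 129 reads and a fold of 1.39. Cer1, a secreted antagonist of Nodal, BMP and Wnt, had intervals in 3 libraries and none in IgG. Reads numbered 144 over 74 in MTX 1 (fold 2.09, 1.57 to 2.80), 105 over 90 in control 1 (fold 1.54) and 112 over 91 in control 2 (fold 1.28). The MTX 1 and control 2 intervals overlapped by 1 grid step upstream of the gene, and the control 1 interval lay at the 3′ end.

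Of the 7 primitive streak and early mesoderm factors, 3 had a KDM6A interval, beside 67.9% of all protein-coding genes. Eomes, a T-box factor of the streak and definitive endoderm, had intervals in MTX 1, control 1 and control 2. Upstream, MTX 1 had 61 over 27 reads, a fold of 2.42 (1.52 to 3.97). Control 1 had 84 over 64 reads within the gene (fold 1.74) and control 2 had 118 over 100 reads at 8986 bp from the gene (fold 1.23), so the libraries listed separate sites. Mesp1, a factor of early heart mesoderm, had 1 interval, in control 1, with 35 over 17 reads and a fold of 2.72 (1.49 to 5.18), the fewest reads of any listed interval. Mixl1, a homeodomain factor of the streak, had folds of 1.51 in MTX 1 and 1.96 in control 1 at different positions. The control 1 interval also overlapped the neighbouring gene Lin9. An IgG interval in the Mixl1 window had 157 over 169 reads, a fold of 0.964. T (brachyury), Gsc, Lhx1 and Tbx6 had none in any of the 5 libraries.

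Endoderm factors had KDM6A intervals at 2 of 6 genes, beside 67.9% of all protein-coding genes. Hnf4a, a nuclear receptor of liver and gut endoderm, had intervals in both MTX libraries and no control library. MTX 1 had 63 over 23 reads within the gene (chr2:163510601-163511800), a fold of 2.94 (1.80 to 4.97) and the highest of the mesoderm and endoderm genes, and a further interval of fold 1.55. The MTX 2 interval held 78 over 88 reads, a fold of 0.993 with a deposited adjusted p of 1, and lay apart from both. The window of Hnf4a also reaches R3hdml. Sox17, a factor of definitive endoderm, had separate intervals near the same gene end, with 134 over 85 reads in MTX 2 (fold 1.77) and 98 over 77 in control 1 (fold 1.68). Foxa1, Foxa2, Gata4 and Gata6 had none in any library.

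All 5 heart and vessel genes had an interval in at least 1 KDM6A library, which 67.9% of all protein-coding genes had too, and Hand1 and Nkx2-5 also had one in IgG. Nkx2-5, a cardiac homeodomain factor, had 175 over 171 reads in MTX 2 (fold 1.15) and 2 intervals in control 1, of 47 over 25 reads (fold 2.49) and 60 over 37 (fold 2.15), on opposite sides of the gene. Hand2 and Hand1 are basic helix-loop-helix factors of heart development. Isl1, a LIM homeodomain factor of the second heart field and motor neurons, had 1 interval, in control 2, with 93 over 49 reads. Hand2 had 2, in control 1, with folds of 1.25 and 1.69. Kdr, the VEGF receptor of vessel precursors, had a fold of 1.57 in MTX 1 and 1.38 in control 2 at separate sites. Hand1 had intervals over the gene in MTX 1, control 2 and IgG with folds of 1.02, 0.973 and 0.992, none above background by the deposited test. The neural genes with no interval in any library were Otx2, Hes5, Neurog2, Olig2, Dbx1, Emx2 and En2. In all, 15 of the 43 genes (34.9%) were without one, beside 30.0% of all protein-coding genes.

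The KDM6A libraries rarely listed the same place. Merging the 75 KDM6A intervals gave 67 regions: 60 (89.6%) came from a single library, 7 from 2 libraries and 0 from 3 or 4. The 67 include regions at the 9 genes (20.9%, beside 22.7% of all genes) that only 1 KDM6A library reached. Of the 48702 regions in the windows of all protein-coding genes, 73.1% were in 1 library, 17.8% in 2, 6.03% in 3 and 3.08% in all 4. Chromosome 11 is dense in every list, and without it (a comparison chosen after seeing the data) the all-gene share in 1 library was 75.9%. The 7 regions of 2 libraries lay at Hes1, Neurod4 (3 regions), Pou3f2, Cer1 and Hand1. Of these 1 joined the libraries of a group, MTX 1 and MTX 2 at Neurod4, and 6 joined an MTX with a control library. An IgG interval overlapped 4 of the 7, at Hes1, Hand1 and 2 of the Neurod4 regions. By interval, 6 of 22 in MTX 1, 3 of 10 in MTX 2, 3 of 33 in control 1 and 3 of 10 in control 2 overlapped another KDM6A library. Those shares are 27.3%, 30.0%, 9.09% and 30.0%, beside 54.6%, 55.1%, 40.7% and 60.2% of the intervals in all gene windows.

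Overlap with IgG was 9 of 75 intervals (12%), 6 of 49 at neural genes (12.2%) and 3 of 26 at mesoderm and endoderm genes (11.5%). By library it was 4 of 22 in MTX 1 (18.2%), 2 of 10 in MTX 2 (20%), 2 of 33 in control 1 (6.06%) and 1 of 10 in control 2 (10%). The values over all gene windows were 26.2%, 25.2%, 19.8% and 26.9%. IgG reached 6 neural genes and 4 genes of mesoderm and endoderm, with 15 intervals in all. MTX 1 and IgG had the same background counts at each of the 52 intervals with the same coordinates in both lists, so their folds are not independent of each other.

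Folds of the KDM6A intervals were low in both classes. At neural genes they ran from 0.923 to 3.28 with a median of 1.49, over a median of 100 immunoprecipitated and 87 background reads. At mesoderm and endoderm genes they ran from 0.889 to 2.94 with a median of 1.56, over a median of 92.5 and 80.5 reads. A fold of at least 2 was found in 6 of 49 and 6 of 26 intervals, and a fold below 1 in 3 and 3. Over the 75 intervals these are 16% and 8%. In all gene windows the share with a fold of at least 2 was 9.88% and 13.2% in MTX 1 and 2. In control 1 and 2 it was 21.2% and 8.26%, and the share below 1 ran from 5.16 to 8.58%. Both pooled shares lay within these ranges, as did the neural ones (12.2% and 6.12%). The mesoderm and endoderm shares (23.1% and 11.5%) lay above both. By library (MTX 1, MTX 2, control 1, control 2), 22.7%, 0%, 18.2% and 10% of intervals at the listed genes had a fold of at least 2. A fold below 1 was found in 0%, 10%, 9.09% and 20%, over 10 to 33 intervals per library. The deposited adjusted p was under 0.05 in 62 of the 75 (82.7%), beside 74.7 to 81.0% of the intervals in the windows of all genes by library. Counting only these, 13 and 6 of the 43 genes had an interval in MTX 1 and 2 (all genes 31.7% and 30.6%), 19 and 7 in control 1 and 2 (47.4% and 25.6%) and 4 in IgG (26.5%). The share in IgG was 9.30% of the listed genes. The deposited p takes the background count as exact, while the fold ranges allow for counting error in it. Some of the 62 intervals had a range that included 1, such as that of Pax6 in MTX 2 (0.969 to 1.66, deposited adjusted p 0.00679).

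**Figure D4:**
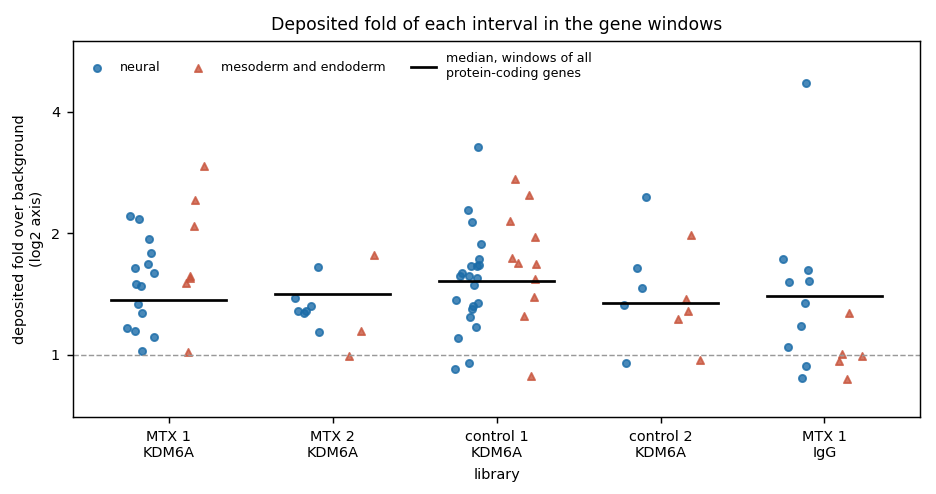
Deposited fold over background (log2 axis) of each interval in the windows of the neural genes (circles) and the mesoderm and endoderm genes (triangles), by library; the black lines are the medians over the windows of all protein-coding genes and the dashed line is fold 1. Points of both classes lie on both sides of the medians, and the highest point is the IgG interval at Neurod4 (4.71).

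By position, 36 of the 75 intervals had their midpoint inside the gene, 22 upstream and 14 downstream, and 3 lay outside genes without a strand in the promoter table. Of the 67 intervals at genes with a strand, 6 came within 1 kb of the 5′ end, 12 came within 1 kb of the 3′ end and 3 covered a start site. Gene ends held an interval at 7 and 3 of the 43 genes in MTX 1 and 2 (all genes 13.5% and 9.27%), 9 and 4 in control 1 and 2 (20.2% and 7.73%) and 5 in IgG (10.4%). As shares these are 16.3% and 6.98%, 20.9% and 9.30%, and 11.6%. A promoter was touched at 3 and 0 of the 36 genes with one in MTX 1 and 2 (all genes 7.83% and 3.32%), 3 and 0 in control 1 and 2 (10.8% and 2.78%) and 1 in IgG (5.57%). Both libraries numbered 1 touched promoters and neither library numbered 2 did, in both groups. Over all genes the libraries numbered 1 had the higher shares too, so this order is not particular to the listed genes.

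Between MTX and control cells, the mean share of all protein-coding genes was 36.7% in MTX and 41.6% in control libraries. The neural share was 28.3 ± 9.22% in MTX and 37.0 ± 27.7% in control libraries (SD, n = 2 each). The mesoderm and endoderm share was 22.5 ± 10.6% and 32.5 ± 10.6%. The differences of both classes were smaller than the spread between replicates of both groups. An exact permutation test of 2 against 2 libraries cannot give a p under 0.33. Intervals in both MTX libraries and no control library were found at 2 of the 43 genes, Neurog1 and Hnf4a (4.65%, beside 1.38% of all genes). Intervals in both control libraries and no MTX library were found at Nes and Atoh8 (4.65%, beside 2.7% of all genes). At each of these 4 genes the libraries of the group listed separate sites. Intervals in at least 3 KDM6A libraries were found at 5 genes (11.6%, beside 28.1% of all genes), and in all 4 at Neurod4 and Lmx1a (4.65%, beside 15.4%). Summed over the window, the fold at Neurod4 was 1.35 and 1.42 in MTX 1 and 2 and 2.28 and 1.33 in control 1 and 2, and 1.55 in IgG. At Lmx1a it was 1.93 and 1.28 in MTX cells and 1.55 and 1.53 in control cells, and 1.41 in IgG. These folds come from 1 to 7 intervals per library, mostly at different sites, so they describe each library and were not compared between the groups.

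Counts could be compared between groups only at regions with an interval in all 4 KDM6A libraries, and no window of the 43 genes held one. The genome held 2132 such regions, of which only 531 overlapped no IgG interval and 1183 lay outside chromosome 11. Over the 2132, edgeR's quasi-likelihood test called 0 higher (0%) and 0 lower (0%) in MTX cells at an adjusted p under 0.05. Its unadjusted p was under 0.05 in 83. limma on log2 folds called 0 (69 unadjusted). DESeq2, run on reads without the background offset, called 8 higher and 8 lower, so it compared reads and not enrichment over background. Without that offset edgeR called 0. A change of KDM6A reads with MTX at the listed genes was therefore not measurable here, which is not evidence that there was none.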

How the data were processed

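KDM6A, IgG and input samples were prepared from Sv129 mouse embryonic stem cells, and 5 interval lists (4 KDM6A, 1 IgG) were used; groups and replicate numbers came from the sample titles. The submitters' processing notes name Bowtie2 and the mm10 build. The sources used here name no program for the intervals. Each list is of 1 library, has 8 columns and lies on a 200 bp grid. Raw counts of immunoprecipitated and background reads were deposited for each interval. The deposited fold is the ratio of these counts times 1 constant per list (1.04 to 1.32). The deposited p-value matched a Poisson upper tail around the scaled background in 100% of the intervals with a fold over 1 (tolerance 0.01 in log10 units), and the last deposited column is an adjusted p-value. Full depth is unknown, since the lists hold only reads within intervals. The labels' protocols give 30 cycles of amplification.

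Lists were kept whole and coordinates counted from 1. All 43 genes matched a RefSeq symbol, and strand and start sites came from the RefSeq promoter table (GRCm38.p6) for 36 of them. KDM6A intervals that touched or overlapped were merged. At regions of all 4 libraries, immunoprecipitated reads were compared by the quasi-likelihood test of edgeR 4.0.16 under R 4.3.3. The log of scaled background was the offset, with Benjamini-Hochberg adjustment. Alternatives were limma 3.58.1 on log2 folds and DESeq2 1.42.0 on reads with size factors and no background offset. The test was checked on simulated data. Overlaps were computed in Python 3.11.15.

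The genes and lists were chosen with earlier results of these data known. Genes with no interval in any of the 5 libraries are named without values. Genes named with values have intervals in at least 3 KDM6A libraries, in both libraries of 1 group alone, or at a gene end in at least 2 libraries. They also include the 5 of each class with the highest fold at an adjusted p under 0.05. Other genes with values were chosen after these were seen, for completeness.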

Additional observations from a re-analysis of the deposited data

How the results depend on the processing

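Over 7 results and 71 alternative values, 7 moved by more than the spread between libraries (1 SD) or, for regions, by 1.5 times in a count or past the counting interval of a share. The other 64 moved by less, but that spread is wide, and some of them changed sign. The share of neural genes with an interval, 32.6% over the KDM6A libraries, became 14.1% with intervals at gene ends only. The mesoderm and endoderm share, 27.5%, became 12.5% there and 42.5% with windows of 20 kb. At gene ends the all-gene shares were 13.5% and 9.27% in MTX 1 and 2, and 20.2% and 7.73% in control 1 and 2. No all-gene share is given here for 20 kb. The mean difference between the classes, 5.11 percentage points, became -3.37 with 20 kb and 0.98 with only intervals of an adjusted p under 0.05 and a fold of at least 1.5. Leaving out 1 library gave neural shares of 24.6 to 37.7%, mesoderm and endoderm shares of 23.3 to 31.7% and class differences of 1.30 to 9.35 points. MTX minus control was -8.70 points for neural genes, and -28.3 without control 2 but 10.9 without control 1; in lists of equal length it was 0, and at gene ends 2.17. For mesoderm and endoderm genes it was -10.0, and -17.5 to -2.50 without 1 library. At the regions of all 4 libraries, where edgeR called 0, DESeq2 called 16 and leaving out 1 library gave 0 to 3. In edgeR the replicate block gave 1. In fold, the libraries numbered 1 did not deviate together from their group means (r = 0.00468 across 2132 regions, which are not independent). That r covers only folds at places listed in all 4 libraries, not which places were listed. Over all genes, promoters were touched at 7.83% and 10.8% in MTX 1 and control 1. In MTX 2 and control 2 the shares were 3.32% and 2.78%. Whether same-numbered libraries share a batch was not tested. The causes were not tested. None of the regions of all 4 libraries lies at a listed gene. With a median of 98 reads per interval, folds near 1 could not be told from background.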
